A study of Clytia hemisphaerica and Astroides calycularis and Pocillopora acuta with 17 samples.

Results

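Neurosecretory 1 cells of the coral Astroides calycularis were examined in single cells of the planula, the swimming larva that attaches by its aboral end and becomes a polyp. They were taken as the cells in which the transcripts STRG.11468, STRG.13206 and STRG.1618 together made up at least 1% of the unique molecular identifiers (UMIs, 1 per captured RNA molecule) and at least 5 UMIs. This gave 190 cells of the 19933 that passed the filters. These 3 genes, called rule genes below, chose the cells, so their own values are given as a description, without a test. STRG numbers are the gene models of the study, and names and protein domains are those of its annotation.

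The cells came from wild larvae with no genetic or chemical treatment, pooled for each dissociation and fixed in ACME solution, and their 3′ RNA was captured in droplets. One dissociation was stained for DNA and sorted to remove debris and doublets, and gave 3 libraries that the files hold as 2 matrices, sorted run 1 (from 2 libraries) and sorted run 2. The other went into droplets unsorted and gave 1 matrix. The 2 sorted matrices are technical replicates, so the design has 2 biological samples, and sorting, larvae and library cannot be told apart between them.

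Neurosecretory cells release proteins or peptides from secretory granules, and in cnidarian larvae they lie among the sensory and nerve cells of the aboral pole, the end with which the larva probes a surface. Cysteine-rich secreted proteins, as toxins, structural proteins and signals, are held in shape by disulphide bonds. Noggin and DAN domain proteins bind ligands of the BMP family outside the cell, tolloid proteases cut other BMP antagonists such as chordin, and activin type II receptors receive BMP and activin ligands. FoxQ2 and NK homeodomain proteins are transcription factors of the aboral or apical territory in several animal larvae.

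The matrices held 28330 features, 21505 barcodes and between 5138992 and 13849472 UMIs each, and 3869 to 9382 cells a matrix passed the filters. Cells were shallow: the median member had 1461.5, 1382 and 1180 UMIs in sorted run 1, sorted run 2 and the unsorted matrix, against 957.5, 1037 and 813 in all other cells. Members were 58 of 6682 cells in sorted run 1 (0.868%, exact 95% binomial interval 0.660 to 1.12%), 93 of 9382 in sorted run 2 (0.991%, 0.801 to 1.21%) and 39 of 3869 in the unsorted matrix (1.01%, 0.718 to 1.38%). These intervals cover counting error only, and they overlap. Of the barcodes, 23 were shared by the sorted matrices, 9 by sorted run 1 and the unsorted matrix and 10 by sorted run 2 and the unsorted matrix, and 2 members had such a barcode. Ribosomal protein genes gave more of the RNA in the sorted matrices, 190253 to 198908 in 1000000 UMIs in members and 223122 to 228362 in other cells, than in the unsorted one, where they gave 121634 in members and 123399 in other cells. No doublet caller was run. Of the members, 18 also passed the 1% gate of another secretory or neural gene list, 15 of them that of the gland mucous list.

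STRG.11468 carries most of the RNA by which these cells are recognised, and its sequence is shown because it is the transcript the study chose for staining by hybridization chain reaction (HCR). The first 300 bases of that target, on the sense strand and 5′ to 3′, begin with a start codon and hold 100 codons with no stop in frame. In-frame cysteine codons (TGC or TGT) are in capitals, and there were 7 of them, 7% of the codons.
STRG.11468: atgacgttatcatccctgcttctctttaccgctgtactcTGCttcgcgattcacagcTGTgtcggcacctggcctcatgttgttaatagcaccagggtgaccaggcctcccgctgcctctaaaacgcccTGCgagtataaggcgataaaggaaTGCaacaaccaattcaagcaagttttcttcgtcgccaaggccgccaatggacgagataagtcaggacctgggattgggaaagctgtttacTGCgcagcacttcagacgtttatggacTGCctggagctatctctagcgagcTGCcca
No other member gene is printed, and positions in the genome were not analysed here.

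STRG.11468 was concentrated in few cells. It gave 13.003%, 15.7% and 13.4% of all UMIs of the members in sorted run 1, sorted run 2 and the unsorted matrix, and up to 1378 UMIs in 1 cell. In all other cells it had 37.0, 48.9 and 67.3 in 1000000 UMIs, so members, under 1% of the cells, held 97.3% of its UMIs. STRG.13206, a second predicted secreted protein, gave 2.24%, 2.40% and 0.273% of members' UMIs in the same order, and STRG.1618, annotated as Short-CCdomain, 0.644%, 0.434% and 0.757%. The 3 genes together ranged from 1.02% to 57.6% of a member's UMIs, with medians of 8.43%, 14.2% and 4.17% in the 3 matrices. Outside the members, 4.24% of cells had a UMI of STRG.11468. In cells with at least 3 UMIs of the gastroderm markers, digestive-layer cells of like depth (median 1310 UMIs), the share was 5.45%, so a single UMI of this gene lies at the background.

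Of the members, 41 of 190 lay under 2%, among them 12 of the 39 unsorted ones. Of the cells with at least 5 UMIs of the rule genes, 9 lay between 1% and 1.25% and 10 between 0.75% and 1%. Every cell past 1% also had 5 UMIs. When each rule gene was left out and the cells were chosen by the other 2, the left-out gene could be read in cells it had not chosen. STRG.13206 was then present in 128 of 179 cells (71.5%), against 0.800% of the rest, and STRG.1618 in 120 of 159 cells (75.5%), against 0.779%. STRG.11468 was present in 90 of only 121 cells (74.4%), against 4.58%, and the cells that lacked it are the subject of the next results.

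The 190 members fell into separate sets by their most abundant rule gene. STRG.11468 was the most abundant rule gene in 155 of them (45 in sorted run 1, 79 in sorted run 2 and 31 unsorted), STRG.1618 in 30 (11, 11 and 8) and STRG.13206 in 5 (2, 3 and 0). Cells led by STRG.11468 usually held the other rule genes as well, all 3 in 111 of 155. Cells led by STRG.1618 held 673 UMIs of that gene, and in all 30 together only 2 UMIs of STRG.11468 and 1 of STRG.13206. The plot of rule genes by cell shows them as a separate column at no STRG.11468 in every matrix. This division was made after the values were seen, so what follows on it is a description without a test.

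**Figure D1:**
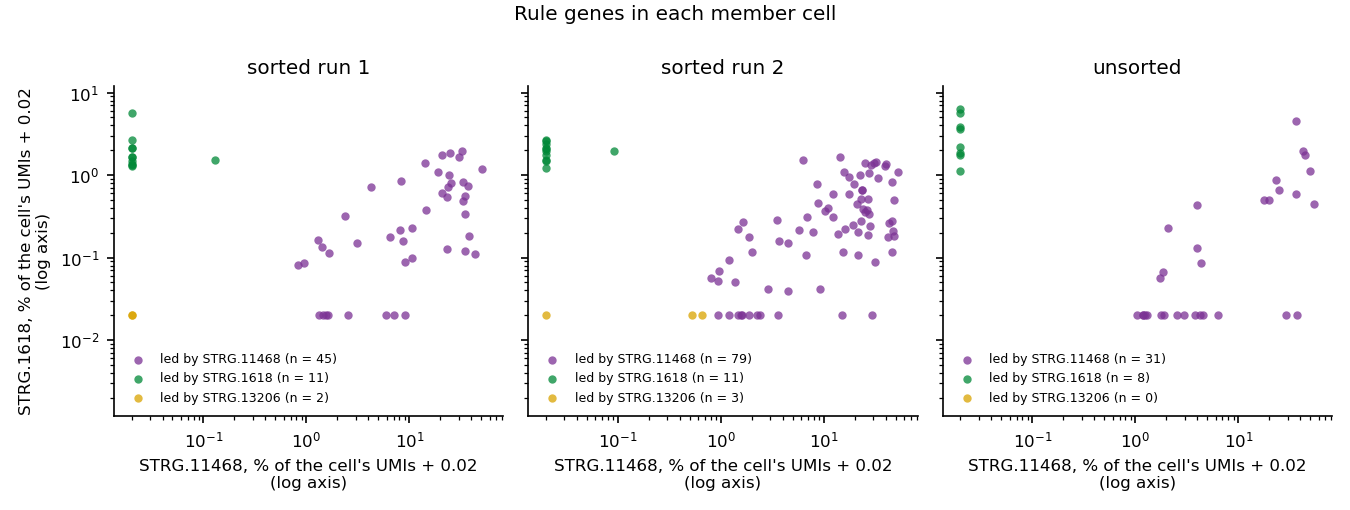
Share of each member cell's UMIs from STRG.11468 (horizontal) and STRG.1618 (vertical), in percent plus 0.02 on log axes, 1 panel per matrix, coloured by the most abundant rule gene. The 30 cells led by STRG.1618 sit apart at or next to 0 for STRG.11468 in all 3 matrices, and cells led by STRG.11468 reach over 50%.

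Other genes, which no gate had used, divided the members along the same line. Levels from here on are counts per 1000000 UMIs (CPM) of the cells named, not counting the 3 rule genes. STRG.37100 (AVR2B-like) is named after an activin type II receptor and has an activin receptor domain. It had 1636 UMIs in 133 of the 155 cells led by STRG.11468 and none in the 30 led by STRG.1618. With 3 UMIs as the floor of the 27204 that those 30 cells hold, it was at least 61.6-fold higher in cells led by STRG.11468. The noggin domain gene STRG.4923 had 559 UMIs in 116 cells against 0, at least 21.04-fold higher. The pentraxin domain genes STRG.13498 and STRG.13484, secreted lectin-like proteins elsewhere, had 828 and 785 UMIs against 0 and 0. STRG.4127, with a muconolactone isomerase domain, had 2094 UMIs against 1, and STRG.38802 4133 against 1. The achaete-scute gene AshA (STRG.10864), a proneural transcription factor, had 161 UMIs in 75 cells against 0. ELAV (STRG.3504), an RNA-binding protein of neurons, had 77 UMIs in 54 cells against 1 UMI.

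In the opposite direction, 5 genes were found in every one of the 30 cells led by STRG.1618 and in at most 3 of the 155 led by STRG.11468. They are STRG.10021, STRG.7992 and STRG.11433, which have a predicted signal peptide and no named domain, STRG.10025, with thrombospondin type 1 repeats of the spondin kind, an extracellular matrix module, and STRG.24019, with the cysteine-rich repeats of lustrin, a shell matrix protein of molluscs. STRG.10025 had 74.7 CPM in cells led by STRG.11468 and 40104 in cells led by STRG.1618. STRG.10021 had 24.9 and 29591, STRG.11433 58.1 and 20842, STRG.7992 16.6 and 9043 and STRG.24019 8.30 and 6176. Each matrix showed this. STRG.10021 had 11.1, 17.6 and 80.7 CPM in cells led by STRG.11468 (sorted run 1, sorted run 2, unsorted), against 29531, 27232 and 32610 in cells led by STRG.1618. STRG.38453, with a von Willebrand factor A domain, and STRG.18603, with thrombospondin repeats, had no UMI in the 155 cells and 86 and 32 UMIs in the 30. Together the 5 genes made up 2.36 to 34.2% of the UMIs of each cell led by STRG.1618, with a median of 10.6%.

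Another set of genes was common to both kinds of cell. STRG.13719, a transcript with no annotation, was in 138 of 155 cells led by STRG.11468 and 27 of 30 led by STRG.1618, at 26453 and 12608 CPM, against 70.4 in all other cells. The forkhead gene FoxQ2 (STRG.27038, nearest to a Nematostella FoxQ2) was in 85 and 18 cells, at 959 and 1728 CPM against 20.4. NKX2-5 (STRG.11493), a homeodomain gene, had 427 and 368 against 11.7, the secreted-protein gene STRG.28645 1357 and 1140 against 14.6, and STRG.4925 324 and 257 against 0.372. In the 30 cells led by STRG.1618, NKX2-5 rested on 10 UMIs in 5 cells and STRG.4925 on 7 UMIs in 6. STRG.1617 was held by few cells of either kind, 17 and 11, at 581 and 5514 CPM.

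**Figure D2:**
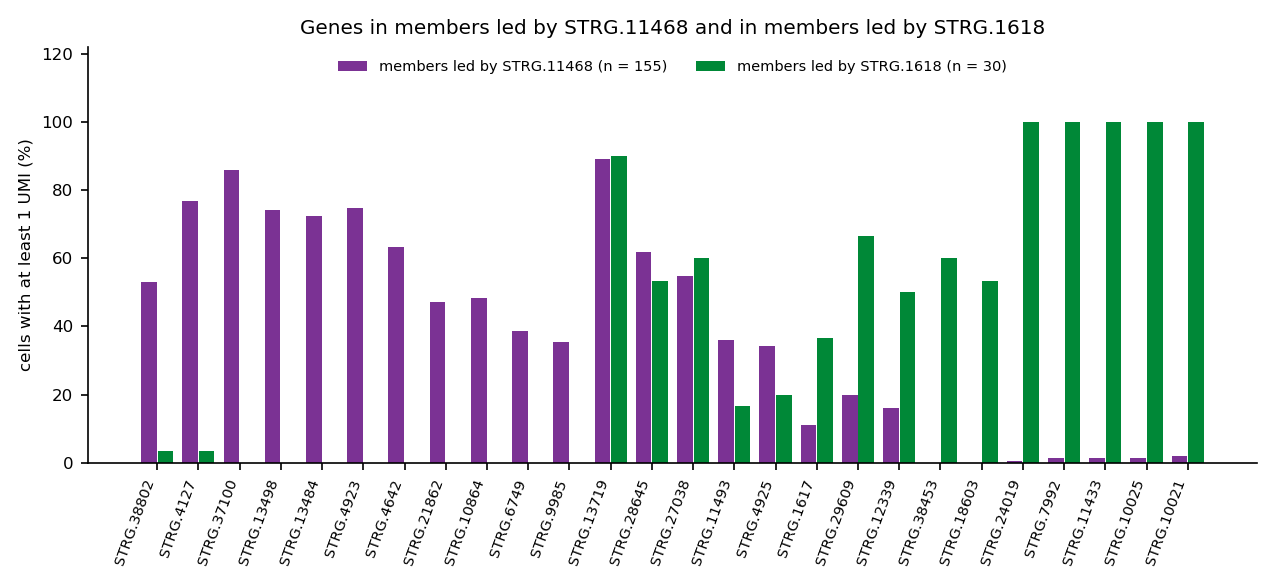
Percent of cells with at least 1 UMI of each gene (vertical), in members led by STRG.11468 (left bars) and members led by STRG.1618 (right bars). The leftmost genes were at or near 0 in cells led by STRG.1618, the 5 rightmost genes were in all 30 of them, and genes such as STRG.13719 and FoxQ2 (STRG.27038) were in both.

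Of 1418 genes with at least 20 UMIs in the 2 kinds together, 48 were over 4-fold higher in cells led by STRG.11468 in all 3 matrices. Another 19 were over 4-fold higher in cells led by STRG.1618, and 1116 were within 2-fold. Levels were set to at least 3 UMIs, which is 12.5 CPM in cells led by STRG.11468 and 110 in cells led by STRG.1618. The counts in the 2 directions are therefore not on an equal footing. Cells led by STRG.11468 were deeper, with a median of 1469 UMIs against 759.5, and 24 of those 155 had under 2% of rule genes, against 15 of the 30 led by STRG.1618. Both sets of genes were also found outside the gate, but not alike. Outside the members, 94 cells had at least 1% and 5 UMIs of STRG.37100, STRG.4127, STRG.13498, STRG.13484 and STRG.4923. Only 5 of these had a UMI of STRG.11468, near the background of 4.24% of other cells. Of this set, STRG.4127 and STRG.13484 were also at 1067 and 607 CPM in cells of the GLWamide list. A further 56 had at least 1% and 5 UMIs of the 5 genes of cells led by STRG.1618. Of these, 32 had a UMI of STRG.1618, against 0.623% of other cells, while 3 had one of STRG.11468. Of the cells led by STRG.11468, 2 had at least 5 UMIs of both sets of 5 genes, and of the cells led by STRG.1618 none had. The 5 cells led by STRG.13206 held 194 UMIs of it, 26 of STRG.11468 and none of STRG.1618. A single cell among them held 59 UMIs of the GVWamide precursor (STRG.21557) and 1 held 56 of Damicornin (STRG.4391). As a check of the label, AshA had 668 CPM in the cells led by STRG.11468 and 157 in all other cells, while ELAV was at 320 and 252. ELAV was in 29.5% of members, 16.6% of other cells and 16.03% of gastroderm-list cells, and was not called (edgeR adjusted p = 0.992). The 30 cells led by STRG.1618 held 1 UMI of the 2 genes together, at a depth where 3 UMIs would be 110 CPM. That UMI put ELAV at 36.8 CPM in them, and all other cells lay above 110 CPM for both genes. These 2 genes therefore do not bear out the neural part of the label in the 30 cells.

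All members were then set against all other cells by edgeR's quasi-likelihood test on UMIs summed over the cells of each biological sample, with the sample as a block and the rule genes left out. A gene was called at a Benjamini-Hochberg adjusted p under 0.05 and a change of more than 1 on the log2 scale. Of 10431 genes tested, 176 were higher in members (1.69%) and 185 lower (1.77%), and the median over all genes was -0.35. The rule genes were markers of a cluster that the study built on these same cells, so the calls say which genes went with the rule genes in these libraries.

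All 16 genes of the study's neurosecretory 1 list, apart from the rule genes, rose in members, where 1.69% of all genes did, with a median log2 fold change of 6.58. The list was chosen on these samples and is not independent evidence. STRG.37100 (AVR2B-like) had 6711, 6594 and 2702 CPM in members of sorted run 1, sorted run 2 and the unsorted matrix, against 108, 123 and 75.4 in other cells (log2 fold change 5.08 ± 0.51 SE, n = 2 biological samples, edgeR adjusted p = 1.12e-20). Its 3 member values lay well above those of other cells. STRG.4127 had 8623, 8799 and 3997 in members, against 97.1, 90.1 and 119 in other cells (5.40 ± 0.52, edgeR adjusted p = 3.68e-22). FoxQ2 (STRG.27038) had 848, 993 and 1518 in members, against 16.6, 20.7 and 26.9 in other cells (5.30 ± 0.53, edgeR adjusted p = 2.33e-20). It was the only one of these whose unsorted members were highest, and cells led by STRG.1618 reached 3813 there. The cytochrome P450 gene STRG.21862 was almost restricted to members, with 152 UMIs in 73 members and 92.7% of all its UMIs (9.75 ± 0.73, edgeR adjusted p = 7.59e-37). NKX2-5 (STRG.11493) changed by 4.59 ± 0.58, the rhodopsin-type receptor STRG.33984 by 8.28 ± 0.79 and STRG.4925 by 9.25 ± 0.81 (edgeR adjusted p = 7.35e-13, 5.74e-23 and 7.28e-27).

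STRG.38802 had 27485 and 10825 CPM in sorted members and 44.7 in unsorted members, against 67.6, 43.8 and 5.03 in other cells (6.45 ± 0.72, edgeR adjusted p = 9.21e-17). A single cell held 25.5% of its 4175 UMIs and 5 cells 55.4%, and with DESeq2 the call was lost (adjusted p = 0.067; over all alternatives with all kinds of member 1.20e-311 to 0.067). The list genes STRG.11433, STRG.7992, STRG.179, STRG.1617 and STRG.12339 came out of the same test (log2 fold changes of 6.12 to 9.34), but they are the genes higher in the 30 cells led by STRG.1618. With cells chosen without STRG.1618, STRG.11433 and STRG.7992 were at 0.34 and -0.16 (edgeR adjusted p = 0.995 for both), while STRG.179, STRG.1617 and STRG.12339 kept the call in all 19 other settings tried, at no less than 4.10, 5.11 and 5.52.

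**Figure D3:**
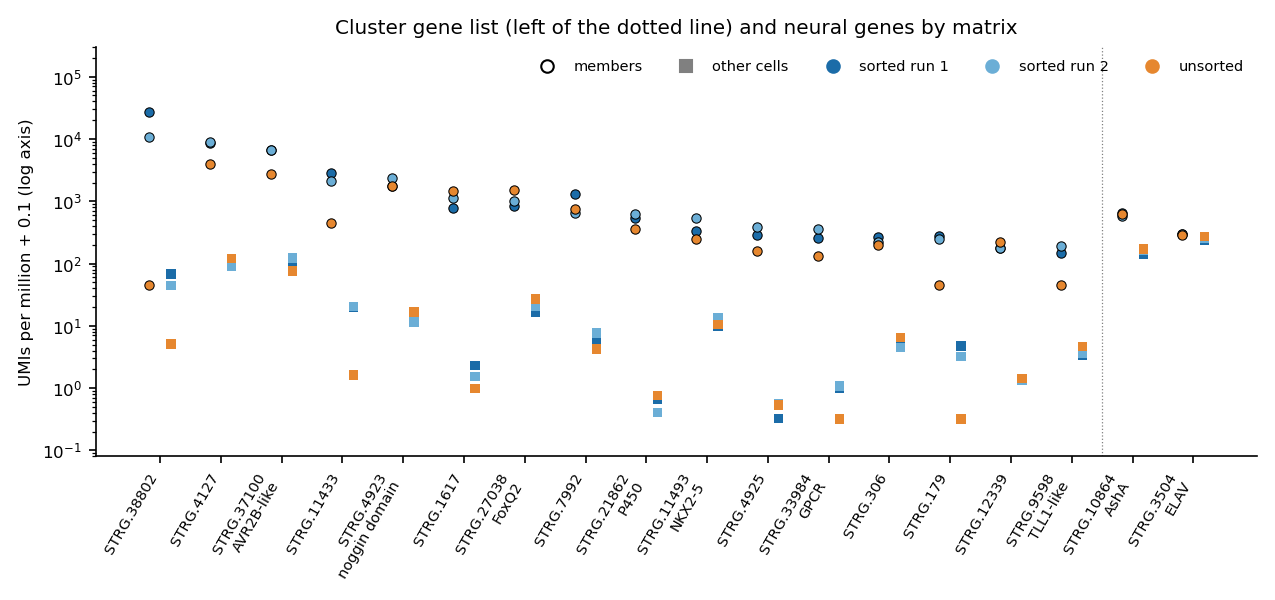
Level in CPM plus 0.1 (log axis) of the 16 list genes and, right of the dotted line, AshA and ELAV, in members (circles, left) and all other cells (squares, right) of each matrix. Members lie above other cells for every list gene in every matrix and for AshA, and at the same level for ELAV.

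Among the genes listed for BMP and activin signalling, 3 rose, annotated as like an antagonist, a receptor and a protease. Of 10 such genes 5 could be tested, and 3 were higher, where 1.69% of all genes were. They were the noggin domain gene STRG.4923, STRG.37100 (AVR2B-like) and STRG.9598 (TLL1-like). STRG.9598 is tolloid-like by name, and the protease domain annotated for it is a trypsin domain. What these proteins do here was not tested. All 3 genes are also on the neurosecretory 1 list. That list was chosen on these cells, so the count is not evidence on BMP and activin genes as a group. STRG.9598, at 3.61 CPM in other cells, passed the low-count filter through its UMIs in members. STRG.26636 and STRG.15310, at 3.54 and 3.17 there and with no UMI in members, were not tested. STRG.4923 had 1774, 2346 and 1764 CPM in members, against 12.2, 11.5 and 16.6 in other cells (6.71 ± 0.56, edgeR adjusted p = 1.36e-29), and was even across matrices. STRG.9598 had 148, 188 and 44.7 in members, against 3.21, 3.54 and 4.59 in other cells (4.81 ± 0.67, edgeR adjusted p = 1.38e-10). The ligand gene GDF11 (STRG.41733) had 1 UMI in all members (-2.298 ± 1.51, edgeR adjusted p = 0.780), and the ligand-like STRG.26636, the second noggin domain gene STRG.15310 and the DAN domain genes STRG.9310 and STRG.19144 had none. The DAN domain gene STRG.10979 had 1 UMI and BMP1-like (STRG.7775), a metalloprotease relative of tolloid, 3. At this depth such low levels cannot be told from absence, since 3 UMIs over all members are 10.9 CPM.

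Of the regulatory genes, few moved. FoxQ2 (STRG.27038) and FoxQ2a (STRG.21847), a Clytia-type FoxQ2 that is also on the apical list, were the 2 called higher of 10 forkhead genes tested, against 1.69% of all genes. FoxQ2a had 237, 211 and 112 CPM in members, against 20.3, 20.1 and 24.3 in other cells (2.68 ± 0.60, edgeR adjusted p = 5.13e-04). It was higher in apical list cells, at 602 CPM against 204 in all members together. NKX2-5 was the 1 called of 18 homeodomain genes tested (5.56%), and no gene of either list was called lower by edgeR or DESeq2 (0 and 5 at an unadjusted p under 0.05). The zinc finger gene STRG.17808, on the GLWamide neuron list, was at 315, 321 and 179 in members, against 44.2, 44.05 and 31.7 in other cells (2.36 ± 0.55, edgeR adjusted p = 9.11e-04), and at 434 in GLWamide list cells.

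Rhodopsin-type G protein-coupled receptors sense transmitters, peptides or other small molecules. Of 44 such genes 23 could be tested, and 6 were called higher (26.1%, against 1.69% of all genes). None was called lower by edgeR or DESeq2 (3 at an unadjusted p under 0.05). Of the 6, STRG.33984, STRG.7543, STRG.34243 and STRG.32600 had only 0.819, 1.64, 1.90 and 2.27 CPM in other cells. They passed the low-count filter through their UMIs in members, which raises the share called, so it is not read as a feature of receptors. STRG.6749 had 443, 508 and 335 CPM in members, against 6.54, 5.51 and 4.37 in other cells (5.95 ± 0.59, edgeR adjusted p = 1.12e-20), and was found in 60 cells led by STRG.11468 and in no cell led by STRG.1618. STRG.32600 (6.23 ± 0.76) was in 37 and 0 cells and STRG.33984 in 56 and 1. The remaining 3, STRG.7543, STRG.34243 and STRG.27990, had 10, 12 and 36 UMIs in all members, and STRG.7543 and STRG.27990 lost the call without sorted run 2 (edgeR adjusted p = 0.345 and 0.0874). Neither of the 2 ligand-gated channel genes tested was called. The subtilase STRG.17272, of the proprotein convertase family that cuts neuropeptide precursors, had no UMI in members, and the carboxypeptidase STRG.18268 had 4 (log2 fold change -0.68 ± 0.95, edgeR adjusted p = 0.992).

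Several of the strongest genes stood outside the neurosecretory 1 list. Of 116 called genes with at least 20 UMIs in members and a higher level in members of every matrix, STRG.261 had the largest fold change (10.74 ± 0.87, edgeR adjusted p = 8.72e-32), with 67 UMIs in 15 members and 3 in other cells. STRG.13498 had 2247, 3551 and 3260 CPM in members, against 3.33, 3.70 and 1.75 in other cells (9.81 ± 0.63, edgeR adjusted p = 1.67e-49), and its fellow pentraxin STRG.13484 2296, 3473 and 2434, against 16.2, 29.2 and 17.7 (6.61 ± 0.55, edgeR adjusted p = 4.42e-30). Both were even across matrices. STRG.13719, with 6753 UMIs in members, rose by 7.48 ± 0.57 (edgeR adjusted p = 2.68e-35). STRG.23568 (5.05 ± 0.53) and STRG.3860 (4.62 ± 0.51), whose ortholog is a thioredoxin, an enzyme that reduces disulphide bonds, were in 139 and 118 members. STRG.10021 (7.28 ± 0.56), STRG.10025 (7.02 ± 0.55), STRG.38453 (8.12 ± 0.68) and STRG.18603 (6.52 ± 0.65) also passed, through the cells led by STRG.1618. The others of the 20 largest fold changes were STRG.9985, STRG.15966 and STRG.23777, at 6.32 to 6.93. STRG.17688, STRG.43383 and STRG.4642 were abundant but less restricted (1.53 ± 0.44, 2.00 ± 0.47 and 2.38 ± 0.52), and without the sample block all 3 lost the call (edgeR adjusted p = 0.458, 0.163 and 0.0714). Over the 19 other settings tried the call was lost in 6, 3 and 2, with adjusted p up to 0.742, 0.313 and 0.601. STRG.17688 was at 6552 CPM in members and 6971 in apical list cells.

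Of the neural genes, AshA was called and ELAV was not. AshA had 641, 587 and 625 CPM in members, against 141, 164 and 172 in other cells (1.52 ± 0.48, edgeR adjusted p = 0.0426). The call was marginal: with 10 UMIs required in the gate, without STRG.11468 or without STRG.1618 in the gate, without the sample block or without shared barcodes the edgeR adjusted p was 0.0687 to 0.478, with log2 fold changes of 1.53 to 1.93, and over all alternatives it was 5.73e-09 to 0.478. ELAV had 296, 297 and 290 in members, against 239, 252 and 275 in other cells (-0.20 ± 0.49 after scaling, edgeR adjusted p = 0.992), so the sign of its small difference turned with the scaling. GLWamide list cells had 2456 of ELAV and 760 of AshA.

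The 4 peptide precursors on the neuropeptide list were not a feature of these cells. HFR1a (STRG.43911), which carries the name of the study's putative neuropeptide HFRIamide, is given with the gland mucous list below. GLWamide (STRG.15971) was in 3 of 190 members, RFamide (STRG.11240) in 5 and GVWamide in 2, and 1 cell held 88.9%, 81.0% and 98.3% of the UMIs of each. None of the 3 was called (edgeR adjusted p = 0.0510, 0.0597 and 0.992), but of the 19 other settings tried GLWamide was called lower in 8, RFamide in 7 and GVWamide in 4. Damicornin, an antimicrobial peptide of corals, was lower in members, at 601, 31.3 and 0 CPM, against 1583, 1310 and 326 in other cells (-3.06 ± 0.55, edgeR adjusted p = 2.64e-06). Of the 65 UMIs in members 1 cell held 56, and with DESeq2 or without STRG.11468 in the gate the call was lost (adjusted p = 0.300 and 0.279; over all alternatives 4.89e-34 to 0.300).

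Markers of some other cell types were lower in members and those of others were not. Of the neurosecretory 2 list 5 of 8 genes could be tested, and 3 fell, where 1.77% of all genes did: the ShK domain gene STRG.14007, a cysteine-rich secreted protein, with 17 UMIs in 5 members (-3.88 ± 0.57, edgeR adjusted p = 1.95e-09), and the metalloproteases STRG.37621 (ADAMTS-like1) and STRG.14960 (ADAMTS-like2), with 2 and 4 UMIs, of which DESeq2 called neither (adjusted p = 0.0651 and 0.0547). The minicollagen Ncol3 (STRG.26600), part of the stinging capsule wall, had 7 UMIs in 6 members (-5.54 ± 0.66, edgeR adjusted p = 1.28e-14), and Nematogalectin-like (STRG.22007) none, but it was in only 0.456% of other cells, and DESeq2 did not call it (adjusted p = 0.628). The summed level of the 3 cnidocyte markers was 19.7, 39.1 and 22.3 CPM in members, against 920, 1400 and 801 in other cells. The gland mucous list stayed at a like level, 7568, 10669 and 5538 in members against 10233, 9823 and 7407 in other cells, and 1 of its 37 tested genes was called by edgeR, STRG.43911 (HFR1a), which was lower (-4.95 ± 0.64, edgeR adjusted p = 4.41e-12). The epidermal gene STRG.11745, the gastroderm gene Testican2-like (STRG.30766) and the secretory marker PA2-like2 (STRG.17610) were also lower, by -1.78, -1.84 and -3.75. STRG.11745 lost the call in 3 of 19 other settings tried and STRG.30766 in 4 (edgeR adjusted p up to 0.257 and 0.112). The apical list was at 808, 751 and 491 CPM in members against 864, 737 and 743 in other cells, with 1 of 26 genes called higher. The GLWamide list was at 1419, 618 and 2010 in members against 3734, 2968 and 928 in other cells, with 1 of 13 called higher. By edgeR and by DESeq2 no gene of these 2 lists, nor of the specialized epidermis and digestive filament lists of 2 genes each, was called lower (2, 1, 0 and 0 at an unadjusted p under 0.05). Their part in the other differences was not tested.

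The 10 lowest genes with at least 100 CPM in other cells had no UMI in any member. They were STRG.21502, STRG.14783, STRG.42770, STRG.27827, STRG.4165, STRG.11761, STRG.41484, STRG.14711, STRG.35092 and STRG.22011. Each was held by 0.268 to 1.06% of other cells, so 190 cells with the same share would hold a few such cells at most, and no fold is given. None of the 10 was called by DESeq2 (adjusted p = 0.471 to 0.775), and with edgeR all were (adjusted p = 3.23e-11 to 1.88e-05). Among genes for secreted proteins on the aboral list, the collagens STRG.11166 and STRG.8480 had 5 and 3 UMIs in members, and STRG.11161 and STRG.11162 none. All 4 were called lower by edgeR (adjusted p = 1.64e-08, 2.84e-07, 4.26e-05 and 0.0163). STRG.11161 and STRG.11162 were not called by DESeq2 (adjusted p = 0.684 and 0.797).

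Most aboral genes did not rise, but a larger share was called in each direction than among all genes. Of the aboral list, genes higher in the aboral part of cut larvae in the study's bulk RNA-seq, 146 could be tested, and 33 rose and 11 fell in members (22.6% and 7.53%, against 1.69% and 1.77% of all genes), with a median of -0.58 against -0.35 over all genes. Some of the 33, such as STRG.38453 and STRG.14245 (0.968 and 0.0372 CPM in other cells), passed the low-count filter through members, which raises the share called higher. Of the oral list, 0 of 78 tested rose by edgeR or DESeq2 (1 at an unadjusted p under 0.05) and 10 fell, and its median was -1.47. Members gave 79804, 75690 and 44147 CPM to the aboral list, against 22734, 21962 and 14045 in other cells. By kind, the level was 65029 in cells led by STRG.11468 and 140862 in cells led by STRG.1618, and for the aboral genes with a predicted signal peptide 19551 and 78114. These levels leave out the rule genes and cover 221 of the 224 genes of the aboral list. STRG.11468 alone had 196465 CPM in cells led by it and 73.5 in cells led by STRG.1618. Of the 140862, STRG.10025, STRG.10021 and STRG.11433 gave 40104, 29591 and 20842, and they were named after their values were seen. The kinds are therefore not ranked by aboral level.

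Within the cells led by STRG.11468, the share of the rule genes graded with the other genes. The share was under 2% in 24 cells, 2 to 10% in 39 and over 10% in 92. STRG.13719 had 2296, 9125 and 44971 CPM in these classes, STRG.37100 (AVR2B-like) 1399, 2242 and 11302 and STRG.4923 (noggin domain) 328, 957 and 3810. FoxQ2 had 65.6, 286 and 1661, AshA 65.6, 200 and 1150 and ELAV 65.6, 286 and 431, where 65.6 stands for only 3 UMIs. Ribosomal protein genes ran the other way, at 210216, 200023 and 149873. Of the lowest class 21 of 24 cells had a UMI of at least 1 of STRG.37100, STRG.4127, STRG.13498, STRG.13484 and STRG.4923, and of the highest all 92. Of the 19743 other cells 1578 had one, and STRG.4127 alone was in 14.9% of gastroderm-list cells. The classes are ranges of 1 score, not types, and 9, 10 and 12 of their cells were unsorted.

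**Figure D4:**
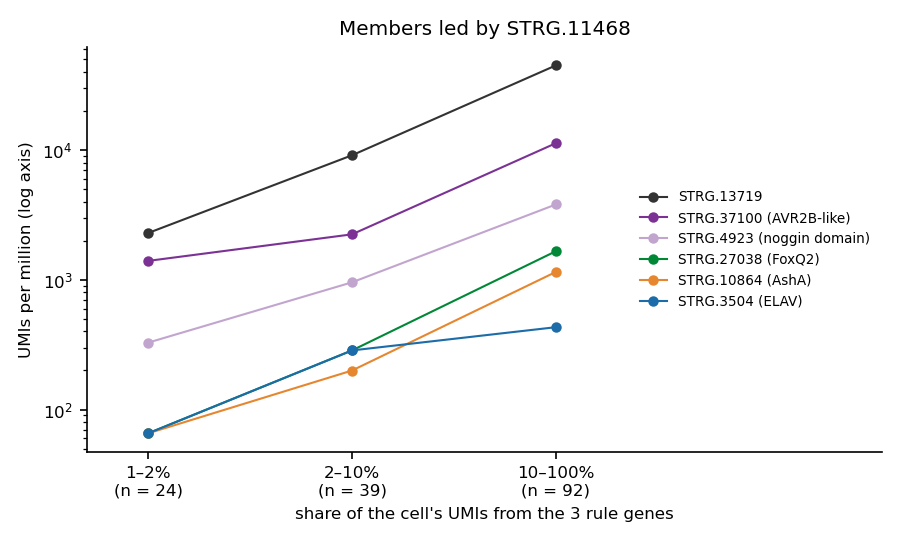
Level in CPM (log axis) of 6 genes in the 155 members led by STRG.11468, in 3 classes by the percent of the cell's UMIs that the 3 rule genes made up (number of cells below each class). All 6 were highest in the 92 cells over 10%. The lowest points of FoxQ2, AshA and ELAV coincide at 65.6 and rest on 3 UMIs each.

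Members were also set against single cell types. Types were taken as non-member cells with at least 1% and 5 UMIs of a type's list, and genes of that list were not tested. HFR1a (STRG.43911) is on the gland mucous list. The gland mucous list cells held 18746 of its 19253 UMIs outside members, so some of them may have entered through this gene. Against 195 neurosecretory 2 list cells, 70 of 1280 genes were higher in members (5.47%) and 45 lower (3.52%). Against 256 GLWamide list cells, 128 of 1530 were higher (8.37%) and 146 lower (9.54%), and against 1489 gland mucous list cells 187 of 2923 (6.4%) and 208 (7.12%). In every comparison all neurosecretory 1 list genes that could be tested were higher, 13, 13 and 16, and 49 genes were higher in all 3, of which 46 were also higher against all other cells. The list was chosen as markers of this cluster in these same samples, so its rise here is not independent evidence. Of the genes higher against each type, 56 of 70, 62 of 128 and 116 of 187 were also higher against all other cells. AshA was not called against neurosecretory 2 or GLWamide list cells (edgeR adjusted p = 0.143 and 0.161), nor STRG.6749 against GLWamide list cells (0.16, edgeR adjusted p = 0.842). STRG.13498 had 3021 CPM in members and no UMI in neurosecretory 2 list cells (edgeR adjusted p = 3.96e-04), so no fold is given. STRG.13719 had 24636 CPM in members and 659 in neurosecretory 2 list cells (4.93 ± 0.24, edgeR adjusted p = 7.31e-05). STRG.4127 had 7949 in members and 1067 in GLWamide list cells, and STRG.13484 had 2867 and 607. STRG.338 was the leading gene the other way, with no UMI in members and 2549 in neurosecretory 2 list cells. The channel subunit STRG.14660, with a neurotransmitter-gated ligand domain, had 124 in members and 5977 in GLWamide list cells (-5.52 ± 0.41, edgeR adjusted p = 1.30e-37), and ELAV was lower there as well (-3.34 ± 0.32).

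Most genes were within 3-fold between sorted and unsorted members, but some differed widely. With 1 biological sample each, these are values without a test. Of 975 genes with at least 30 UMIs in members, 132 were over 3-fold higher in sorted and 38 over 3-fold higher in unsorted members. The same count was not made in other cells, so it is not read as a trait of members. STRG.38802 was 272-fold higher in sorted members when its 2 unsorted UMIs are set at 3, and STRG.26581 had 290 UMIs in 18 sorted members and none in unsorted ones. STRG.13719 had 30461 and 28095 CPM in sorted and 1563 in unsorted members, 18.6-fold higher, and both kinds of member took part: 32691 and 29670 against 1506 in cells led by STRG.11468, and 14617 and 19105 against 1841 in cells led by STRG.1618. STRG.4642 was 17.4-fold, STRG.9985 6.35-fold and STRG.11433 5.48-fold higher.

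For several of these the other cells differed in the same direction, though not always by a like factor. STRG.4642 had 409 CPM in sorted and 15.96 in unsorted other cells, STRG.13719 82.7 and 10.5, STRG.11433 20.02 and 1.53 and STRG.38802 53.5 and 5.03. The rule gene STRG.13206 behaved in the same way. In cells led by STRG.11468 it had 16.9 and 14.7 UMIs for every 100 of STRG.11468 in the sorted runs and 2.04 in the unsorted matrix, and in other cells 24.3, 20.8 and 3.25. Members held 96.7% of the UMIs of STRG.13206 and 97.3% of those of STRG.11468. The ratios in other cells rest on the few that remain, so they are not separate support. STRG.13206 was in 91.1% and 93.7% of sorted and 58.1% of unsorted cells led by STRG.11468. STRG.1618, by contrast, had 3.25, 2.00 and 2.56 for every 100, and STRG.4923, STRG.13498 and AshA were 1.19, 0.912 and 0.976 times as high in sorted as in unsorted members. Larvae, sorting and library cannot be told apart here.

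**Figure D5:**
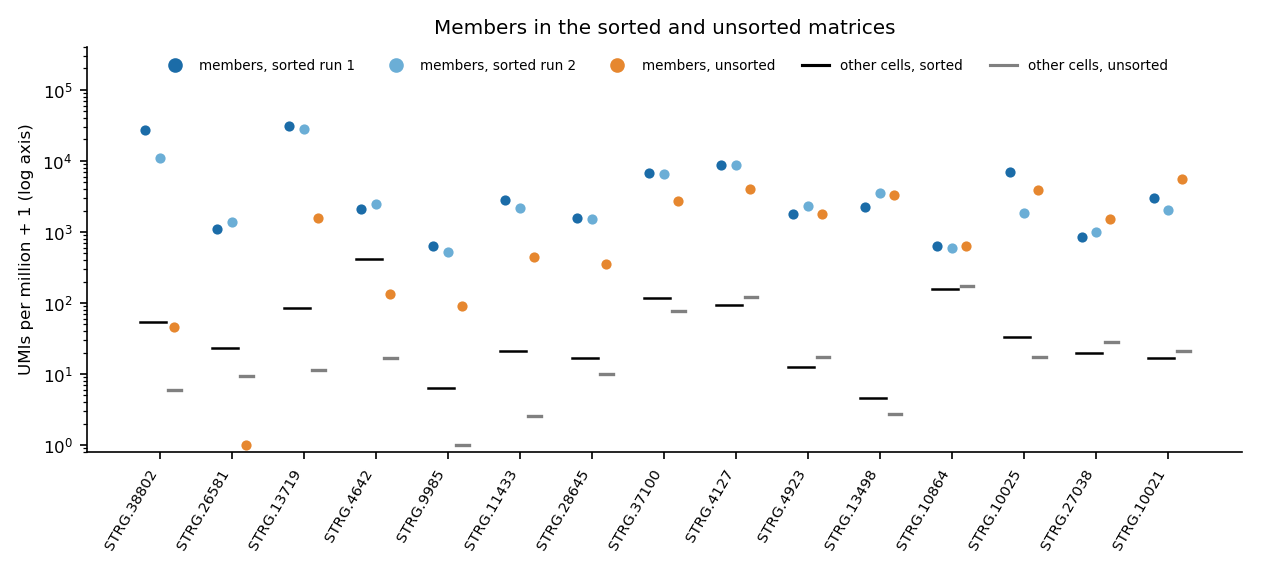
Level in CPM plus 1 (log axis) of 15 genes in members of sorted run 1, sorted run 2 and the unsorted matrix (points), with the level in other cells as lines (black, sorted; grey, unsorted). The 7 leftmost genes are lower in unsorted members, and for most of them the lines differ in the same direction, while STRG.4923, STRG.13498 and AshA (STRG.10864) are level.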

How the data were processed

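Single-cell RNA-seq of Astroides planulae (10x Genomics 3′ kit) was deposited as 3 matrices of UMI counts per gene and barcode. Per the labels and the study's methods, the authors mapped reads with STARsolo to their own genome assembly and StringTie gene models, with 300 UMIs as the lower limit for a cell. The deposited counts are whole UMIs, not normalized. The matrix of sorted run 1 pools 2 libraries with no map from cells to libraries. Matrices of the other species were not used here.

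Barcodes with 300 to 10000 UMIs, 200 to 3000 genes and at most 0.4% of UMIs from XLOC_MITO were kept. Members and gene lists were chosen with earlier results of these data known. UMIs of members and of all other kept cells were summed per biological sample (2 sorted matrices added) and tested with edgeR 4.0.16 in R 4.3.3 (glmQLFit, glmQLFTest, TMM, filterByExpr, sample as block, Benjamini-Hochberg). The SE is the fold change divided by the root of F. With 2 biological samples, p-values rest on 1 residual degree of freedom and on the spread shared among genes. On simulated counts for this comparison (9916 genes tested), 77% of 100 genes changed 4-fold and 100% of 100 changed 16-fold were recovered, and no unchanged gene was called. The simulation used the same fixed spread for every gene and changed only genes with a mean of at least 20 UMIs in the member sums. It therefore does not cover genes with fewer UMIs or genes held mostly by single cells.

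Genes were named by rule: the rule genes; all genes of the neurosecretory 1, neural, neuropeptide, BMP/activin and propeptide processing lists; of genes higher with at least 20 UMIs in members and higher in every matrix, the 20 with the largest fold change and the 15 with most UMIs; of genes lower with at least 100 CPM in other cells, the 10 lowest; called genes of the other lists; and markers of other types. Genes that divide the members, or differ between sorted and unsorted ones, were named after their values were seen. Alternatives covered the gate, normalization, DESeq2 1.42.0, filter, unit of summing, block, depth, mitochondrial limit, doublets and each matrix left out. Summing per matrix and leaving out the unsorted matrix counted the sorted runs, which are technical replicates, as separate samples. The ranges over all alternatives and the counts over settings include these fits.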

Additional observations from a re-analysis of the deposited data

Results flagged for a closer look

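Among the named genes with at least 20 UMIs in members there were 2 in which the members lay below other cells in both sorted matrices and above them in the unsorted one, and this difference was not tested. The epidermal marker Sox3 (STRG.11680) had a level in members over other cells of -0.61 in sorted run 1 and -1.68 in sorted run 2 on the log2 scale, against 0.20 in the unsorted matrix, on 57 UMIs in members. STRG.8870 had -0.12 and -0.64 in the sorted runs, against 0.40 in the unsorted matrix, on 21 UMIs. Neither gene was called between members and other cells (edgeR adjusted p = 0.579 and 0.974).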

How the results depend on the processing

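Of the counts over all genes, that of genes higher in members was 111 to 241 when a matrix was left out, with 111 without sorted run 2, and 29 when only cells led by STRG.1618 were used (added after seeing the data). The count of genes lower in members was less stable: 78 with STRG.11468 out of the gate, 101 with DESeq2, 338 with no low-count filter, 471 with sums per matrix and 211 to 570 when a matrix was left out. The highest count of each left-out range came from the fit without the unsorted matrix. That fit has no biological replication, because its samples are sorted run 1 and sorted run 2, which are technical replicates. Sums per matrix also counted these runs as separate samples. The counts from these fits are therefore not read as more genes found. Against neurosecretory 2 list cells, no filter gave 113 higher and 76 lower genes. Among cells with at least 1000 UMIs, members were 1.174% of sorted run 1, 1.312% of sorted run 2 and 1.469% of the unsorted matrix. A gate of 0.5%, 2% or 10 UMIs gave 219, 149 and 177 members.

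The sample served as a replicate block because the members and other cells of a sample come from the same dissociation. With no replicate block 184 genes were higher and 186 lower, and 163 and 146 of these were among the genes called with it.

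Some named genes changed sign, on the log2 scale. With cells led by STRG.1618 alone, STRG.4127 was at -2.63, STRG.4923 at -9.49, STRG.37100 at -12.42, STRG.38802 at -1.17, AshA (STRG.10864) at -13.07, STRG.21557 at -12.31, STRG.13484 at -10.18, STRG.17688 at -2.60, STRG.4642 at -13.83, STRG.17808 at -11.05, STRG.6749 at -8.17 and STRG.21702 at 0.61; several rest on no UMI and are not bounds. With STRG.1618 out of the gate, STRG.7992 was at -0.16, STRG.10021 at -1.21, STRG.10025 at -0.29 and STRG.24019 at -4.29, and with cells led by STRG.11468 alone STRG.24019 was at -4.19 and STRG.21557 at -4.75. The GVWamide precursor STRG.21557, which rests on 1 cell, was at -12.41 with the 2% gate, -4.81 without STRG.13206 in the gate, -0.033 with DESeq2, -4.82 in cells of at least 1000 UMIs and -4.62 to 1.38 when a matrix was left out. ELAV (STRG.3504) was at 0.025 with the 2% gate. BMP1-like (STRG.7775) was at 0.090 with the 2% gate, 0.23 in cells of at least 1000 UMIs, 0.053 without members past another gate and -8.29 to 0.51 when a matrix was left out. The cause of the other changes was not tested.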
